A study of Mus musculus with 29 samples.

Results

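Cpd, Plek2, Fam124a, Fabp5, App, Gda, Gab2, Rnf144b, Osbpl3 and B3gnt7 are 10 mouse genes that were chosen because their RNA was clearly higher with JAK2 V617F in megakaryocyte-erythrocyte progenitors (MEPs) carrying 2 or 1 working copies of Ezh2. They are 10 of the 18834 genes in the count files and 10 of the 13928 that passed a filter on low counts. They were chosen by the measured V617F differences in Ezh2+/+ and Ezh2+/- cells, which are therefore given as a description, without a test. The choice had no numeric threshold, so no gene lies just inside or just outside one. The V617F difference in Ezh2-/- cells comes from libraries that the choice did not use, and it was tested. Earlier results of these data were known when the genes were chosen.

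RNA-seq was run on MEPs, from which both megakaryocytes with their platelets and red cells arise, in 29 libraries of 6 genotypes. Every group, controls included, carried SclCre, in some labels ScleCre, a Cre recombinase driven by an element of the blood gene Scl. Without V617F there were 5 Ezh2+/+ libraries (the controls, 2 male and 3 female), 4 Ezh2+/- libraries (2 male, 2 female) and 4 Ezh2-/- libraries (1 male, 3 female). With V617F there were 4 Ezh2+/+ libraries (1 male, 3 female), 6 Ezh2+/- libraries and 6 Ezh2-/- libraries, and these last 12 were all female. The labels say only "replicate", so p-values measure the spread between these libraries, which may be partly technical. The sources used here do not give the ages of the mice, the sorting gates or the way V617F was introduced.

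JAK2 is the kinase that the erythropoietin and thrombopoietin receptors use to switch on STAT5, and V617F is the mutation that keeps it active in most patients with polycythemia vera. EZH2 is the enzyme of Polycomb repressive complex 2 (PRC2) that methylates lysine 27 of histone H3 and so helps to keep genes silent. Loss of EZH2 occurs together with V617F in some patients, and in mice the combination is known for a more severe disease with marrow fibrosis. The 10 genes fall into several roles: Gab2 and Plek2 act in signalling below cytokine receptors, App and Cpd are membrane proteins of the secretory pathway, Fabp5 and Osbpl3 handle lipids, and Gda, B3gnt7 and Rnf144b are enzymes.

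Levels are CPM, read counts scaled to a common library size (counts per 1e6, with TMM factors). Differences are log2 fold changes ± SE from edgeR's quasi-likelihood fit over all 29 libraries, with a term for sex, and adjusted p-values are Benjamini-Hochberg over all 13928 genes, with 0.05 as the threshold. Library totals ran from 31583023 to 59448945 counts. Ezh2 RNA followed the labels, at 269 to 319 CPM in controls, 188 to 197 in Ezh2+/- and 67.9 to 79.5 in Ezh2-/- without V617F, and at 244 to 313, 148 to 205 and 51.2 to 59.5 CPM with V617F. The erythroid transcription factor Gata1 was present in every group, with group means of 230 to 283 CPM. The summed CPM of 15 erythroid markers ran from 7100 to 9260 in controls, 7790 to 10700 in Ezh2+/- and 8270 to 9830 in Ezh2-/-. With V617F the sum ran from 7280 to 9430 in Ezh2+/+, 5920 to 10900 in Ezh2+/- and 5460 to 6950 in Ezh2-/-. The V617F Ezh2-/- libraries thus lay below all Ezh2-/- libraries without V617F. In bulk RNA, fewer cells of a type and less RNA per cell cannot be told apart.

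Promoter sequences are shown for Fam124a, B3gnt7, Rnf144b and Cpd, which had the 3 largest V617F differences in Ezh2+/+ cells (Fam124a, B3gnt7, Cpd) or, for Rnf144b, the only match to the STAT-type motif. Each is the 250 bases before the annotated start from the RefSeq promoter table of build GRCm38.p6, 5′ to 3′ on the gene's strand, and capitals mark a motif match. Of the 10 genes 8 matched an entry in that table, and the count files use build mm9.
Fam124a, chr14:62555487-62555736, plus strand: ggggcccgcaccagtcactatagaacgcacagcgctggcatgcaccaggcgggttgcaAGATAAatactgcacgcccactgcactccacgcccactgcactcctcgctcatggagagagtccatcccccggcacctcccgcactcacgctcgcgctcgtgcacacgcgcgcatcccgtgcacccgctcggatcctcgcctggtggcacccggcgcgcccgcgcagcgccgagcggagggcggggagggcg
B3gnt7, chr1:86302971-86303220, plus strand: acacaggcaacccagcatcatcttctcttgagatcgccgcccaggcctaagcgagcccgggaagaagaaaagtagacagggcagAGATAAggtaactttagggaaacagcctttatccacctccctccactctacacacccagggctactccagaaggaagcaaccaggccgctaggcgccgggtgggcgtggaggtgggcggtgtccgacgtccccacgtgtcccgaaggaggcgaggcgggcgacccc
Rnf144b, chr13:47122470-47122719, plus strand: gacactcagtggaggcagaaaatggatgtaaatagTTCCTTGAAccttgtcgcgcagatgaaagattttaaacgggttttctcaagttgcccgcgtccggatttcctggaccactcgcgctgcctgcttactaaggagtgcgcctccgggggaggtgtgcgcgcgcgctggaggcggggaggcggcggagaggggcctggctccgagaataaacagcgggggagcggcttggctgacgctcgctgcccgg
Cpd, chr11:76847009-76847258, minus strand: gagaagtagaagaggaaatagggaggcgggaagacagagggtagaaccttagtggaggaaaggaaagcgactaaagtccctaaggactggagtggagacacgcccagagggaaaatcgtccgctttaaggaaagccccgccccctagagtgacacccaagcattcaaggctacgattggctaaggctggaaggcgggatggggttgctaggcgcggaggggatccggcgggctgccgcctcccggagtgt

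The motifs searched, on both strands, were TTCNNNGAA (the core of STAT5 sites), AGATAA and TGATAA (both bound by GATA factors, with the same ending, so that 1 position can match only 1 of them) and TATAAA. Rnf144b held TTCNNNGAA, starting 215 bases before the first of its 2 annotated starts, and 6.08% of 10952 promoters of tested genes held this motif. Fam124a and B3gnt7 held AGATAA, 192 and 166 bases before their starts, against 6.31% of all promoters. At their first annotated start, none of the 8 genes held TGATAA or TATAAA in this window, which 3.78% and 6.69% of all promoters held, and the window before the other start of Rnf144b held TATAAA. All shares count 1 start per gene. The same window of Fam124a held 30 CpG dinucleotides and that of Gda 5, beside a median of 15 (quartiles 8 and 22) over all promoters. These matches describe letters only and say nothing of binding.

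Without V617F, loss of both Ezh2 copies alone was accompanied by higher RNA of 7 of the 10 genes, beside 11.5% of all genes tested. The remaining 3 of the 10, App, Gab2 and Osbpl3, did not pass the test. This comparison shares the control libraries with the contrast that chose the genes. With Ezh2 lost, V617F still raised 9 of the 10 genes, beside 19.1% of all genes tested, and Fam124a did not pass the test. The log2 V617F difference was smaller in Ezh2-/- than in Ezh2+/+ cells for most of the 7 genes that stood higher with Ezh2 loss. It was of similar size for Gab2, Rnf144b and Osbpl3. This is a description only, because the genes were chosen for their V617F differences in Ezh2+/+ or Ezh2+/- cells. The control libraries also enter both the V617F difference in Ezh2+/+ and the Ezh2-/- difference without V617F. In Ezh2+/- cells without V617F the levels of the 10 genes stayed near control.

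**Figure D1:**
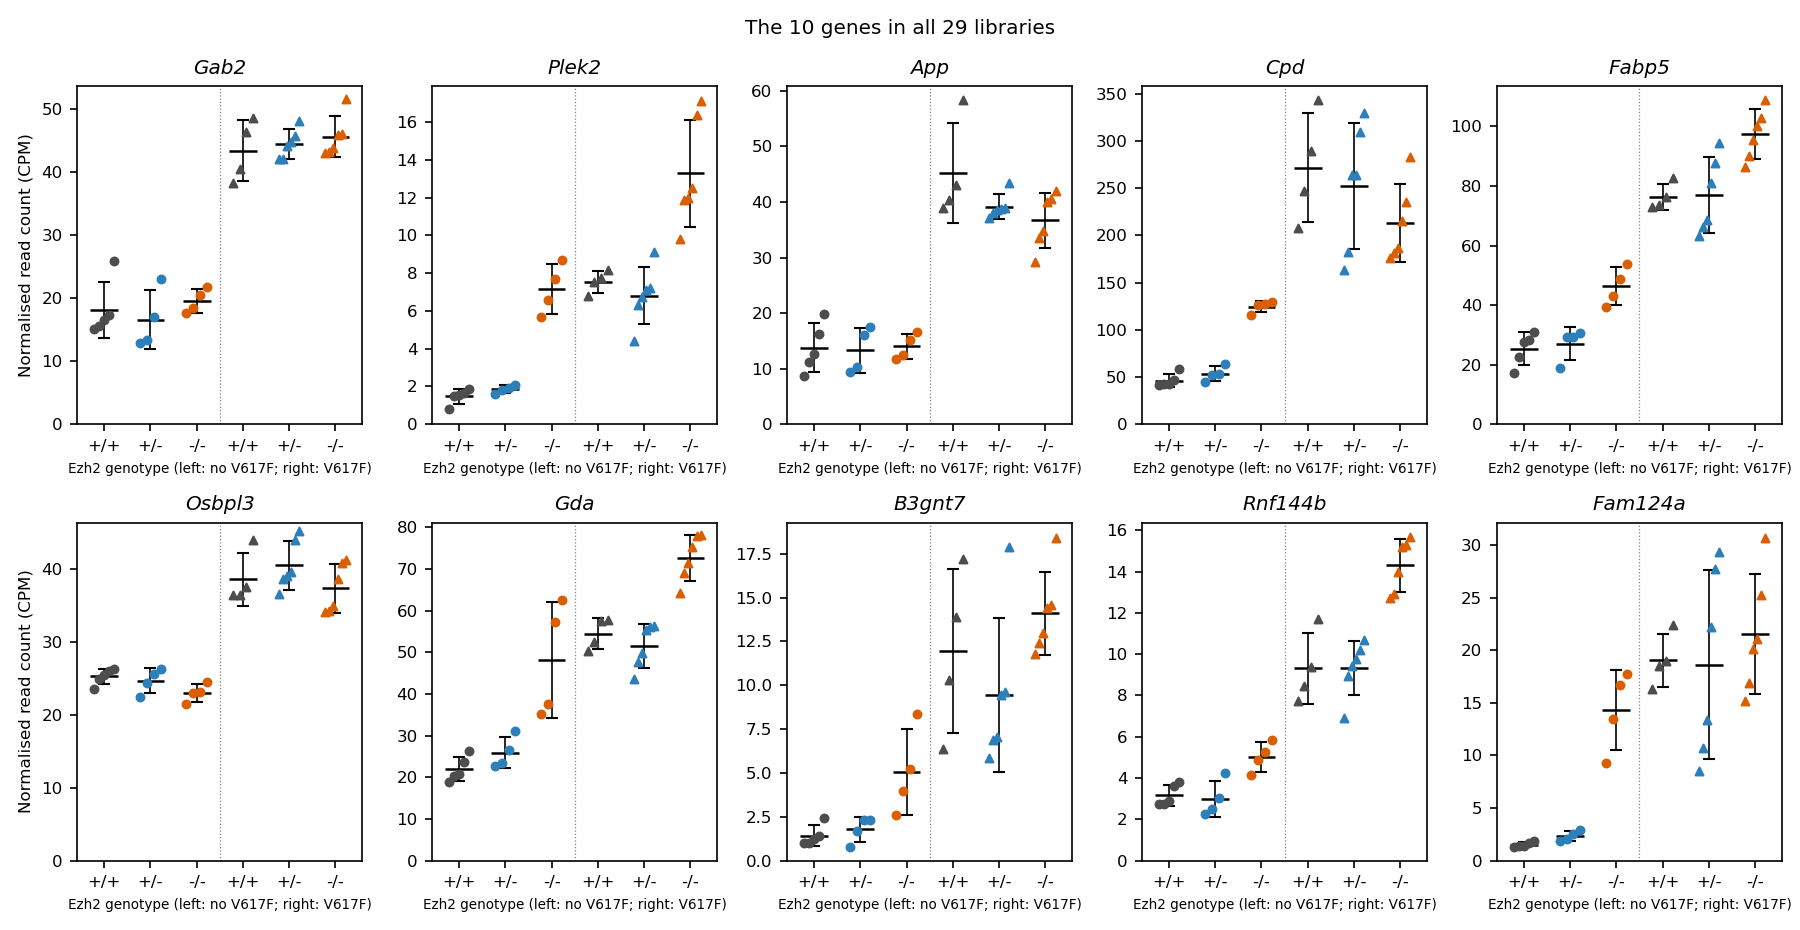
Normalised read counts (CPM, linear axis from 0) of the 10 genes, 1 panel each, in the 29 libraries by Ezh2 genotype, with circles for libraries without V617F, triangles for those with it, and bars for mean ± SD. Gab2, App and Osbpl3 form a low and a high level split by V617F, while Plek2, Gda and Fam124a are already high in Ezh2-/- libraries without V617F.

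Gab2 is a docking adaptor that is phosphorylated below cytokine receptors and recruits the phosphatase SHP2 and PI3-kinase. Gab2 measured 16.5, 15.6, 17.3, 15.1 and 25.8 CPM in the 5 control libraries. With V617F in Ezh2+/+ cells it measured 40.4, 38.2, 48.5 and 46.3 CPM. All V617F libraries thus lay above all controls, and the highest control, replicate 5, stood apart from the other 4. In Ezh2-/- cells Gab2 measured 21.7, 17.6, 18.4 and 20.4 CPM without V617F, and 42.9 to 51.6 CPM (median 44.8, n = 6) with it. The level without V617F overlapped the controls and the level with it overlapped the other V617F groups. The V617F differences were 1.25 ± 0.13 in Ezh2+/+ and 1.35 ± 0.14 in Ezh2+/-, and the tested difference in Ezh2-/- was 1.17 ± 0.14 (adjusted p = 4.02e-06, edgeR). Ezh2 loss gave Gab2 no called difference without V617F (0.09 ± 0.14, adjusted p = 0.656) or with it (0.02 ± 0.13, adjusted p = 0.929). Without control replicate 5 and Ezh2+/- replicates 2 and 5, the first of these became 0.31 (adjusted p = 0.00632, edgeR).

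Plek2 is a pleckstrin-homology protein of actin organisation and a known effector of JAK2 signalling in red cell precursors. Plek2 was low in controls, at 0.812, 1.86, 1.56, 1.67 and 1.5 CPM. With Ezh2 lost and no V617F it measured 7.71, 5.65, 8.72 and 6.57 CPM. With V617F in Ezh2+/+ cells it measured 7.52, 6.77, 7.73 and 8.14 CPM. Each single change therefore brought Plek2 to a similar level, and the mean in Ezh2-/- libraries was 95% of that in V617F Ezh2+/+ libraries. With both, Plek2 measured 9.80 to 17.1 CPM (median 12.3, n = 6), above every other library of the series. Ezh2 loss raised Plek2 by 2.26 ± 0.20 without V617F (adjusted p = 6.19e-09) and by 0.79 ± 0.19 with it (adjusted p = 0.00461, edgeR). V617F raised it by 0.87 ± 0.19 in Ezh2-/- cells (adjusted p = 0.00193, edgeR), beside 2.33 ± 0.20 in Ezh2+/+ and 1.82 ± 0.22 in Ezh2+/-.

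App encodes the amyloid precursor protein, a membrane protein that secretases cleave and that platelets carry in quantity. App measured 12.6, 8.69, 16.3, 11.1 and 19.9 CPM in controls. In V617F Ezh2+/+ libraries it measured 58.4, 43.0, 40.4 and 38.9 CPM. Ezh2-/- libraries without V617F held 16.6, 11.7, 15.2 and 12.4 CPM, within the range of the controls. With V617F, Ezh2+/- libraries spanned 37.1 to 43.5 CPM (median 38.6, n = 6) and Ezh2-/- libraries 29.1 to 42.0 CPM (median 37.4, n = 6), so the 3 V617F groups overlapped. V617F raised App in Ezh2-/- cells by 1.27 ± 0.16 (adjusted p = 8.7e-06, edgeR), next to 1.67 ± 0.15 in Ezh2+/+ and 1.36 ± 0.16 in Ezh2+/-. The Ezh2-/- difference was -0.02 ± 0.15 without V617F (adjusted p = 0.929). With V617F App fell by 0.42 on the log2 scale (SE 0.15, adjusted p = 0.0368, edgeR), a call that 13 of 18 alternatives did not keep. Male minus female, App differed by -0.48 ± 0.12 (adjusted p = 0.093, edgeR), the lowest adjusted p of the sex term among the 10 genes.

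Cpd encodes carboxypeptidase D, a membrane enzyme of the trans-Golgi that trims basic residues from the ends of processed peptides. Cpd measured 41.4, 42.0, 58.4, 46.2 and 42.5 CPM in controls. With V617F it measured 208, 247, 343 and 289 CPM in Ezh2+/+ libraries. In V617F Ezh2+/- libraries it spanned 163 to 330 CPM (median 264, n = 6). These V617F groups lay well above control and had a wider relative spread, with a coefficient of variation of 26.6% in V617F Ezh2+/- and 15.5% in controls. Ezh2-/- libraries without V617F sat between these levels and close together, at 127, 116, 126 and 129 CPM, 45.8% of the V617F Ezh2+/+ mean. V617F Ezh2-/- libraries reached 176 to 283 CPM (median 201, n = 6), above Ezh2-/- without V617F and overlapping the other V617F groups. V617F raised Cpd by 0.77 ± 0.18 in Ezh2-/- cells (adjusted p = 0.0027, edgeR), against 2.56 ± 0.19 in Ezh2+/+ and 2.23 ± 0.20 in Ezh2+/-. Ezh2 loss raised Cpd by 1.43 ± 0.18 without V617F (adjusted p = 1.6e-06, edgeR). With V617F the Ezh2-/- difference was -0.36 ± 0.18 (adjusted p = 0.127, edgeR), and leaving out V617F Ezh2+/+ replicate 1 made it -0.49 (adjusted p = 0.0433).

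Fabp5 is an intracellular carrier of fatty acids. Fabp5 ranged from 17.2 to 31.0 CPM in controls, 39.5 to 53.9 in Ezh2-/-, 73.0 to 82.7 in V617F Ezh2+/+ and 86.5 to 109 in V617F Ezh2-/-. None of these 4 ranges overlapped, but the V617F Ezh2+/- range, 63.3 to 94.4 CPM, overlapped those of V617F Ezh2+/+ and V617F Ezh2-/-. V617F raised Fabp5 by 1.01 ± 0.14 in Ezh2-/- cells (adjusted p = 3.37e-05, edgeR), next to 1.57 ± 0.14 in Ezh2+/+ and 1.40 ± 0.15 in Ezh2+/-. Ezh2 loss raised it by 0.85 ± 0.14 without V617F (adjusted p = 5.05e-05, edgeR). With V617F the Ezh2-/- difference was 0.29 ± 0.14 (adjusted p = 0.111), and with only the 2 compared groups fitted it was 0.36 (adjusted p = 0.0112).

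Osbpl3 belongs to the oxysterol-binding proteins, which move lipids at contacts between membranes. It had the smallest V617F difference of the 10 genes in Ezh2+/+ cells. Osbpl3 held 26.3, 23.6, 26, 25.5 and 24.9 CPM in controls and 23, 23.1, 21.5 and 24.5 CPM in Ezh2-/-. It held 44.0, 37.5, 36.4 and 36.5 CPM in V617F Ezh2+/+ and 34.1 to 41.3 CPM (median 36.8, n = 6) in V617F Ezh2-/-. Every V617F library lay above every library without V617F, and the Ezh2 genotypes overlapped. The V617F differences were 0.61 ± 0.07, 0.71 ± 0.08 and, tested in Ezh2-/-, 0.69 ± 0.07 (adjusted p = 1.6e-06, edgeR). The Ezh2-/- differences were -0.13 ± 0.07 without V617F (adjusted p = 0.194) and -0.05 ± 0.07 with it (adjusted p = 0.624).

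Gda encodes guanine deaminase, which turns guanine into xanthine. Gda ranged from 18.9 to 26.2 CPM in controls. Ezh2-/- libraries without V617F held 57.4, 35.2, 62.6 and 37.5 CPM, a wide spread that lay all above control. V617F Ezh2+/+ libraries spanned 50.3 to 57.8 CPM and V617F Ezh2-/- libraries 64.2 to 78.2 CPM (median 73.4, n = 6). The V617F Ezh2-/- group lay above all other libraries. V617F raised Gda by 0.54 ± 0.12 in Ezh2-/- cells (adjusted p = 0.00172, edgeR), beside 1.28 ± 0.12 in Ezh2+/+ and 0.87 ± 0.13 in Ezh2+/-. Ezh2 loss raised it by 1.09 ± 0.12 without V617F (adjusted p = 2.54e-07, edgeR). With V617F the rise was 0.35 ± 0.12 (adjusted p = 0.0314, edgeR), and 5 of 18 alternatives did not keep that call.

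B3gnt7 encodes a transferase that adds N-acetylglucosamine to growing keratan sulfate and related sugar chains. B3gnt7 measured 1.39, 1.02, 1.25, 0.995 and 2.45 CPM in controls. Ezh2-/- libraries held 5.21, 2.60, 3.96 and 8.36 CPM, and V617F Ezh2+/+ libraries 13.9, 17.2, 10.3 and 6.34 CPM. These 2 groups overlapped with each other and not with control. V617F Ezh2-/- libraries ranged from 11.8 to 18.4 CPM (median 13.7, n = 6). B3gnt7 had the widest relative spread of the 10 genes in Ezh2-/- libraries, with a coefficient of variation of 48.9%. V617F raised it by 1.49 ± 0.38 in Ezh2-/- cells (adjusted p = 0.00431, edgeR), next to 3.05 ± 0.38 in Ezh2+/+ and 2.42 ± 0.40 in Ezh2+/-. Ezh2 loss raised it by 1.80 ± 0.37 without V617F (adjusted p = 0.000871, edgeR), and the difference with V617F was 0.24 ± 0.35 (adjusted p = 0.638).

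Rnf144b encodes an E3 ubiquitin ligase of the RING-between-RING (RBR) class and is a known p53 target. Rnf144b measured 3.62, 2.88, 2.75, 2.75 and 3.80 CPM in controls. Ezh2-/- libraries held 5.25, 4.88, 4.14 and 5.86 CPM, and V617F Ezh2+/+ libraries 11.7, 8.44, 9.36 and 7.73 CPM. The groups stood in steps, and V617F Ezh2-/- libraries formed a further step at 12.7 to 15.7 CPM (median 14.6, n = 6). The V617F difference was 1.55 ± 0.16 in Ezh2+/+, 1.61 ± 0.17 in Ezh2+/- and, tested in Ezh2-/-, 1.49 ± 0.17 (adjusted p = 2.35e-06, edgeR). Ezh2 loss raised Rnf144b by 0.66 ± 0.16 without V617F (adjusted p = 0.00451, edgeR) and by 0.60 ± 0.16 with it (adjusted p = 0.00748, edgeR). Without V617F Ezh2+/+ replicate 4 the latter was 0.52 (adjusted p = 0.0505).

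Fam124a had the largest V617F difference of the 10 genes in Ezh2+/+ cells and the largest Ezh2-/- difference without V617F. Fam124a measured 1.36, 1.41, 1.25, 1.64 and 1.83 CPM in controls and 2.05, 2.49, 1.84 and 2.87 CPM in Ezh2+/- libraries. Ezh2-/- libraries without V617F held 17.8, 9.27, 16.7 and 13.5 CPM. V617F Ezh2+/+ libraries held 16.3, 18.5, 22.4 and 19 CPM. The Ezh2-/- and V617F Ezh2+/+ groups overlapped, and each lay far above control. V617F Ezh2+/- libraries ranged widely, from 8.55 to 29.4 CPM (median 17.8, n = 6), and V617F Ezh2-/- libraries from 15.2 to 30.7 CPM (median 20.6, n = 6). The V617F difference was 3.66 ± 0.31 in Ezh2+/+ and 2.96 ± 0.33 in Ezh2+/-. In Ezh2-/- cells it was 0.56 ± 0.28, which did not pass the test (adjusted p = 0.103, edgeR) and ranged from 0.38 to 0.68 over 18 alternatives. Ezh2 loss raised Fam124a by 3.24 ± 0.31 without V617F (adjusted p = 1.53e-08, edgeR), and the difference with V617F was 0.14 ± 0.28 (adjusted p = 0.737).

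Across the 10 genes, the V617F difference ran from 0.61 to 3.66 (median 1.62) in Ezh2+/+ and from 0.71 to 2.96 (median 1.5) in Ezh2+/-. In both genotypes all 10 had no overlap between the compared groups. Over all genes tested, 9.73% passed the test as higher with V617F in Ezh2+/+ and 3.35% in Ezh2+/-, and 5.23% and 2.78% stood higher with no overlap, and nothing is read from the comparison because these contrasts chose the genes. In Ezh2-/- cells 9 of the 10 rose (median 0.94, range 0.54 to 1.49), where 19.1% of all genes tested were higher. The same 9 had no overlap between groups, where 19% of all genes had none in that direction. DESeq2 also called 9 of the 10.

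**Figure D2:**
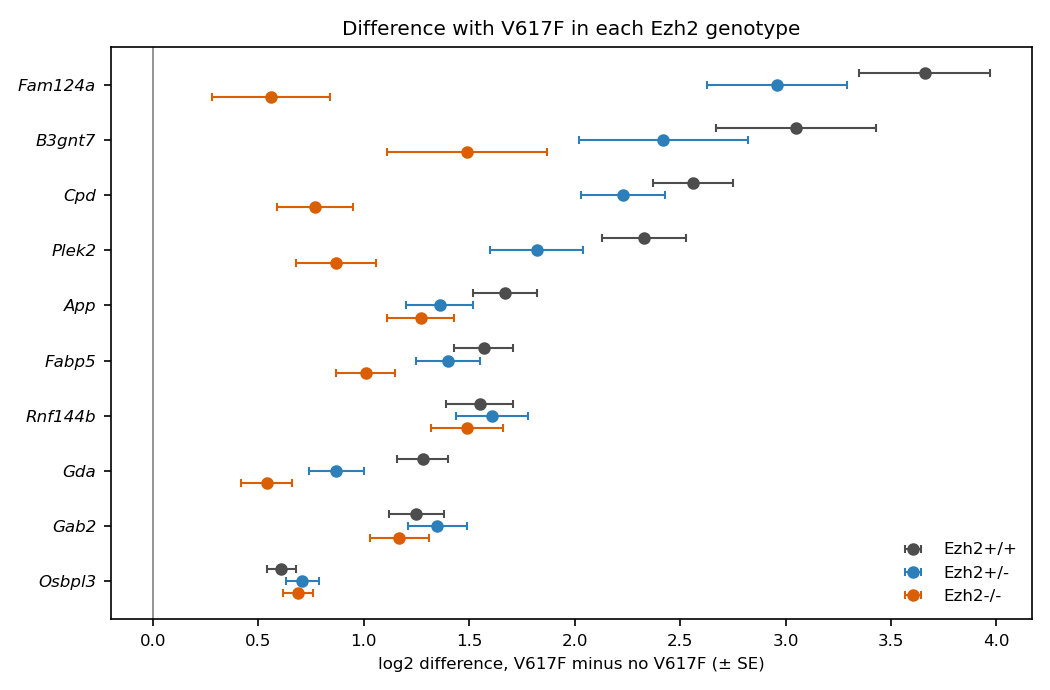
Log2 difference with V617F (horizontal axis, ± SE) of each of the 10 genes in Ezh2+/+ (grey), Ezh2+/- (blue) and Ezh2-/- (orange) cells, ordered by the value in Ezh2+/+. The orange points of Fam124a, B3gnt7, Cpd and Plek2 lie far left of the grey ones, and the 3 points of Gab2, Rnf144b and Osbpl3 lie together.

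The dependence of the V617F difference on Ezh2 is the interaction, the V617F difference in Ezh2-/- minus that in Ezh2+/+. Since it includes the contrast that chose the genes, it is a description only. It was -3.10 ± 0.40 for Fam124a, -1.79 ± 0.25 for Cpd, -1.57 ± 0.50 for B3gnt7 and -1.46 ± 0.27 for Plek2. For Gda, Fabp5 and App it was -0.74 ± 0.17, -0.56 ± 0.19 and -0.40 ± 0.21. It lay within 1 SE of 0 for Gab2 (-0.07 ± 0.19), Rnf144b (-0.06 ± 0.22) and Osbpl3 (0.08 ± 0.10). These values are on the log2 scale, where the same rise in CPM from a higher starting level is a smaller difference. Mean CPM of Plek2 went from 1.48 to 7.54 with V617F in Ezh2+/+ and from 7.16 to 13.3 in Ezh2-/-. Fabp5 went from 25.4 to 76.4 and from 46.3 to 97.4, a similar rise in both. Cpd went from 46.1 to 272 and from 125 to 213, a smaller rise in Ezh2-/-. Rnf144b went from 3.16 to 9.31 and from 5.03 to 14.3, a larger rise in Ezh2-/-. The interaction was negative for 9 of the 10 genes and for 47.9% of all genes tested. Nothing is read from this count, since the choice favoured it. Over the alternatives the estimates of Gab2 (-0.20 to 0.17) and Rnf144b (-0.16 to 0.07) took both signs. With female libraries only, the estimates of Cpd, Fabp5 and Gab2 shifted by at least the mean SD of the gene within groups. Over all alternatives Cpd ran from -1.91 to -1.54 and Fabp5 from -0.66 to -0.29. The corresponding values for Ezh2+/- ran from -0.70 ± 0.42 for Fam124a to 0.10 ± 0.19 for Gab2, 7 of them negative (52.4% of all genes tested), and no gene of all those tested had a called interaction there (0.0%, edgeR). At an unadjusted p under 0.05, 937 genes had one, and DESeq2 called 7.

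Ezh2-/- without V617F was compared with control. These tests share the control libraries with the contrast that chose the genes, so they are not independent of the choice. Of the 10 genes 7 rose (Cpd, Plek2, Fam124a, Fabp5, Gda, Rnf144b and B3gnt7), with no overlap in all 7, where 11.5% of all genes tested were higher and 11.5% were higher with no overlap. The median over the 10 was 0.97. With V617F, Ezh2-/- against Ezh2+/+, 3 of 10 rose (Plek2, Gda and Rnf144b) and App fell, beside 13% of all genes higher and 13.6% lower, and the median over the 10 was 0.19. Leaving out V617F Ezh2+/+ replicate 2 or replicate 4 left 2 of these 4 calls. These libraries also entered the contrast that chose the genes.

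**Figure D3:**
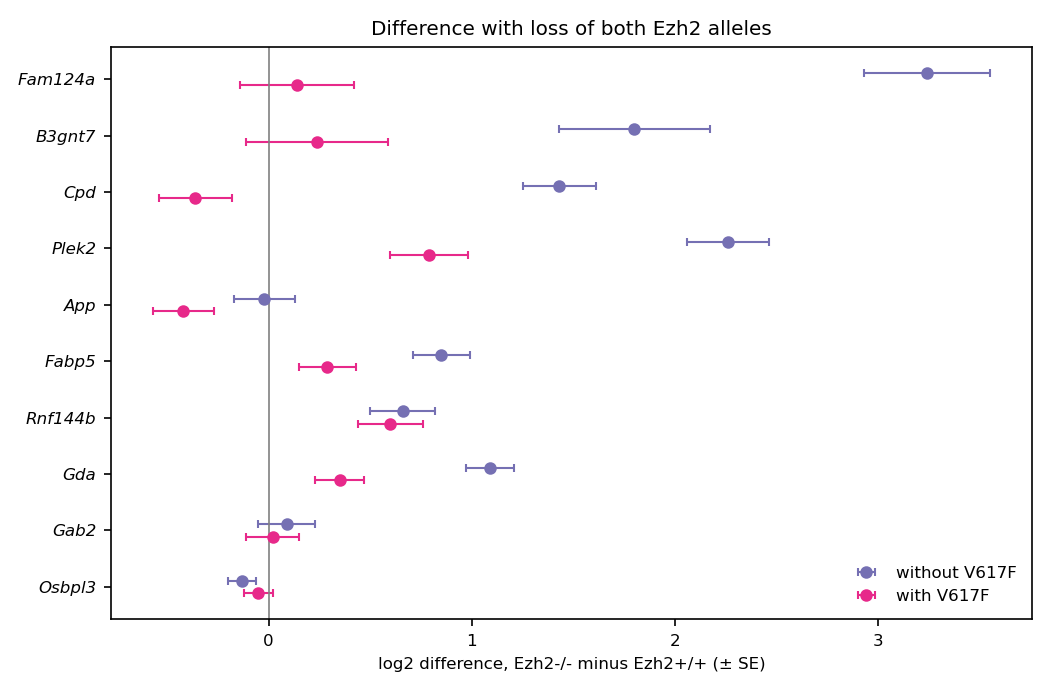
Log2 difference between Ezh2-/- and Ezh2+/+ cells (horizontal axis, ± SE) of the 10 genes without V617F (purple) and with V617F (pink), in the same order as the plot of V617F differences. Purple points lie right of 0 for the 7 genes that rose and near 0 for App, Gab2 and Osbpl3, and most pink points lie closer to 0.

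Loss of 1 Ezh2 copy gave no called difference for any of the 10 genes in edgeR, either without V617F (0.0144% of all genes called) or with it (0.00718%). The libraries of both comparisons all entered the contrasts that chose the genes, and almost no gene was called, so nothing is read from this. In each comparison 1 of the 10 had an unadjusted p under 0.05, Gda without V617F and App with it, and DESeq2 called 0 of 10. The estimates ran from -0.12 to 0.64 without V617F and from -0.34 to 0.07 with it. The highest was Fam124a, whose Ezh2+/- libraries without V617F all lay above the controls by a narrow margin (0.64 ± 0.31, adjusted p = 1, edgeR), as 0.409% of all genes tested did.

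The order of the 6 group means describes the same levels again and is no separate test. Plek2, Gda and Rnf144b had a single highest group, V617F Ezh2-/-, with no overlap with the group below. For Plek2 and Gda the 3 groups beneath it, Ezh2-/-, V617F Ezh2+/- and V617F Ezh2+/+, overlapped in a chain. Cpd rose in 3 steps, the 2 low groups, Ezh2-/- and the 3 V617F groups. App, Gab2 and Osbpl3 had 2 levels only, the 3 groups without V617F and the 3 with it, and overlap within each. Per gene length, the control level was highest for Fabp5 at 26.6 RPKM, then 5.04 for Cpd, 4.09 for App, 4.06 for Gda, 3.64 for Osbpl3 and 3.01 for Gab2, and under 1 RPKM for Plek2 (0.955), Rnf144b (0.673), B3gnt7 (0.547) and Fam124a (0.421).

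Relatives and partners of the 10 genes were examined to see whether their families moved as well. Of 90 listed genes 75 passed the filter. With V617F, 6 rose and 9 fell in Ezh2+/+ (median -0.01), 2 rose and 4 fell in Ezh2+/- (median 0.05), and 20 rose and 14 fell in Ezh2-/- (median 0.05), where 23.6%, 9.87% and 41.6% of all genes tested were called. Among 10 Gab relatives and partners, none was higher with V617F in Ezh2+/+ and 1 was lower, while 6 had an unadjusted p under 0.05 and DESeq2 called 2. In Ezh2-/- 3 rose, among them Plcg2, the phospholipase C-gamma of blood cells (15.9 to 88.2 CPM, 2.25 ± 0.40, adjusted p = 0.000378), and the adaptor Crk (0.42 ± 0.11, adjusted p = 0.00488). Gab1, the closest relative of Gab2, rose with Ezh2 loss without V617F (0.73 ± 0.11, adjusted p = 1.34e-05, edgeR), the change that Gab2 did not show.

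Plek, the pleckstrin of platelets and relative of Plek2, behaved unlike Plek2 in Ezh2-/- cells. Plek measured 24 ± 5.06 CPM in Ezh2-/- (n = 4) and 340 ± 69.7 CPM in V617F Ezh2-/- (n = 6). The difference was 3.44 ± 0.54 (adjusted p = 0.000118, edgeR). Its interaction was positive (2.19 ± 0.67, adjusted p = 0.0308) and was not called in 11 alternatives.

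Among 12 App relatives and processing genes, V617F in Ezh2-/- cells lowered Aplp2, the App paralog (-0.65 ± 0.12, adjusted p = 0.000415, edgeR). Psen2, a gamma-secretase subunit, fell by 0.57 on the log2 scale (adjusted p = 0.000501), and the alpha-secretase Adam17 by 0.27 (adjusted p = 0.00136). In all 3 of the 12 fell and 2 rose, a share near the 41.6% of all genes called in that comparison. Of 4 tested carboxypeptidases related to Cpd, Cpe, which trims prohormones, fell with V617F in Ezh2+/+ from 1.85 to 0.41 CPM (-2.14 ± 0.42, adjusted p = 0.000685, edgeR). The other 3 did not pass the test, and 23.6% of all genes tested were called in that comparison.

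Most purine enzymes moved the other way from Gda in Ezh2-/- cells. With V617F there, 8 of 11 fell and 1 rose, beside 22.5% of all genes tested that fell. The adenosine deaminase Ada fell from 21.6 to 17.1 CPM (-0.35 ± 0.08, adjusted p = 0.00152, edgeR), and Gmpr, the GMP reductase, rose from 7.48 to 20.6 CPM (1.32 ± 0.28, adjusted p = 0.00137, edgeR). Ada rose with Ezh2 loss without V617F, as Gda did (0.75 ± 0.08, adjusted p = 8.91e-08, edgeR). Xdh, the xanthine oxidoreductase that uses the product of Gda, fell with V617F in Ezh2+/+ from 5.51 to 2.80 CPM (-1.02 ± 0.24, adjusted p = 0.00357, edgeR).

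Among 13 B3gnt and keratan sulfate enzymes, 7 rose and 1 fell with V617F in Ezh2-/-, where 19.1% of all genes tested were higher and 22.5% lower. The galactosyltransferase B4galt1 rose from 89.5 to 124 CPM (0.45 ± 0.07, adjusted p = 0.000153, edgeR). The keratan sulfate sulfotransferase Chst1 shared the Ezh2-/- rise of B3gnt7, from 1.85 to 8.87 CPM (2.22 ± 0.24, adjusted p = 8.73e-08, edgeR), and unlike B3gnt7 it fell with V617F, by 1.04 in Ezh2+/+ (adjusted p = 0.00347) and by 0.83 in Ezh2-/- (adjusted p = 0.00501). Among 11 other RBR ligases, 1 rose and 2 fell with V617F in Ezh2+/+, near the 23.6% of all genes tested that were called in either direction. There Rnf19a fell by 0.59 (adjusted p = 0.00023, edgeR) and Rnf31, a subunit of the linear ubiquitin ligase, by 0.35 (adjusted p = 0.000885, edgeR). Rnf144a, the closest relative of Rnf144b, rose with Ezh2 loss in V617F cells from 49.4 to 88.2 CPM (0.78 ± 0.18, adjusted p = 0.00246, edgeR). In the oxysterol-binding family, 2 of 10 fell with V617F in Ezh2+/+, near the same 23.6% of all genes tested. This was the same number as at an unadjusted p under 0.05 and by DESeq2. Osbpl7 was one of them (a fall by 0.36, adjusted p = 0.00269, edgeR). Osbpl1a rose with V617F in Ezh2-/- (0.37 ± 0.09, adjusted p = 0.00264, edgeR). Osbp2 rose with Ezh2 loss, by 1.16 ± 0.29 without V617F (adjusted p = 0.00512) and 2.07 ± 0.33 with it (adjusted p = 6.03e-05), at levels near or under 1 CPM.

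**Figure D4:**
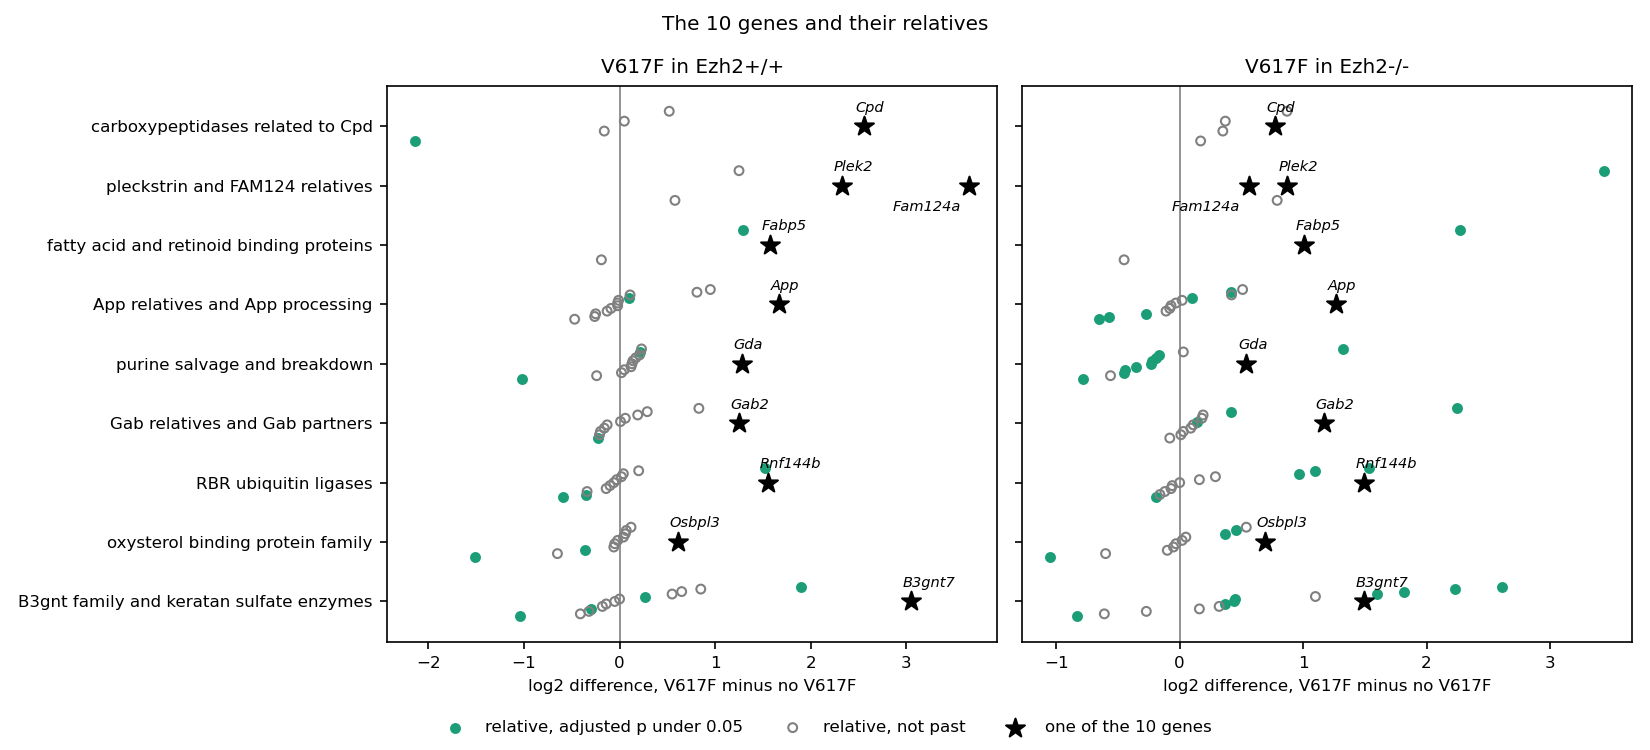
Log2 difference with V617F (horizontal axis) of the 10 genes (black stars) and of the tested members of 9 lists of relatives and partners (points, filled where the adjusted p is under 0.05) in Ezh2+/+ (left) and Ezh2-/- (right) cells, with vertical offsets only to separate points. The place of the stars in the left panel follows from how the 10 genes were chosen, and in Ezh2-/- filled points lie on both sides of the stars.

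Known STAT5 targets, which JAK2 signalling can switch on, were measured in the same libraries. Of 16 tested, 8 rose and 2 fell with V617F in Ezh2+/+ (median 0.32), 7 rose and 1 fell in Ezh2+/- (median 0.37), and 11 rose in Ezh2-/- (median 0.99), where 12 passed in DESeq2 and 12 had an unadjusted p under 0.05. Of all genes tested 9.73%, 3.35% and 19.1% were higher in these 3 comparisons. Cish, a feedback inhibitor of STAT5, rose by 1.53 ± 0.23 in Ezh2+/- (adjusted p = 0.0001) and by 2.22 ± 0.23 in Ezh2-/- (adjusted p = 1e-06, edgeR). Ccnd2, cyclin D2, rose by 0.66 ± 0.08, 0.69 ± 0.08 and 0.81 ± 0.08 in the 3 Ezh2 genotypes. Osm, the cytokine oncostatin M, rose by 1.08 ± 0.13 in Ezh2+/+ and 1.16 ± 0.13 in Ezh2-/-. Erfe, the erythroid hormone erythroferrone, rose by 2.47 ± 0.25 in Ezh2+/+ and 2.15 ± 0.26 in Ezh2+/-. Socs2, a further feedback inhibitor, rose with Ezh2 loss both without V617F (1.68 ± 0.29, adjusted p = 0.0001) and with it (1.25 ± 0.28, adjusted p = 0.00215, edgeR).

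For each of the 10, the most alike genes outside the 10 were found. The measure was the root mean square difference between profiles of the 5 log2 differences from control over the 6 group means. A smaller value is more alike. Cpd was closest to Erfe (0.294), and Plek2 and B3gnt7 were closest to Cda, the cytidine deaminase (0.207 and 0.511), with Socs2 the next for both (0.371 and 0.545). Fam124a was closest to Podxl, the sialomucin podocalyxin (0.499). Fabp5 and Rnf144b shared the closest gene, the tetraspanin Cd63 (0.106 and 0.123), and lay 0.166 from each other. App was closest to Anxa1 (0.214), Gab2 to Reep2 (0.15), Gda to Sall2 (0.205) and Osbpl3 to Pla2g4a (0.062) and then Ccnd2 (0.091). Among the 10, App lay 0.248 from Gab2, and Osbpl3 and Fam124a were the least alike at 2.783. Plek2 lay 0.445 from B3gnt7, so B3gnt7 was more like Plek2 than like Cda. These are descriptions over 6 means that share libraries.

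RNA of other lineages also differed between the groups. The summed CPM of 15 megakaryocyte and platelet markers ran from 138 to 505 in controls and 106 to 155 in Ezh2-/- without V617F. With V617F it ran from 322 to 1480 in Ezh2+/+, 197 to 1520 in Ezh2+/- and 805 to 1260 in Ezh2-/-. Of 14 tested markers 10 rose with V617F in Ezh2+/+, 6 in Ezh2+/- and 14 in Ezh2-/-. Of all genes tested 9.73%, 3.35% and 19.1% were higher in these comparisons. With Ezh2 loss without V617F 5 of the 14 fell, where 12.2% of all genes tested fell. Summed CPM of 13 granulocyte markers ran from 49.6 to 339 in controls, 21.7 to 88.3 in Ezh2-/-, 671 to 1190 in V617F Ezh2+/+, 346 to 1810 in V617F Ezh2+/- and 132 to 1350 in V617F Ezh2-/-. No marker of either list was at 0 in every library of a group. With V617F in Ezh2-/- cells 9 of 10 stem and multipotent progenitor markers rose (median sums of 56.2 CPM without V617F and 234 with it). So did 7 of 8 mast cell, basophil and eosinophil markers (7.73 and 46.9 CPM), beside 19.1% of all genes tested. With V617F in Ezh2+/+ cells 11 of 14 monocyte, macrophage and dendritic markers fell (median sums of 212 and 80.1 CPM). So did 10 of 12 T and NK cell markers (111 and 42.6 CPM), where 23.6% of all genes tested were called in either direction. Among V617F groups 7 of 9 B cell markers were higher with Ezh2 loss (6.64 and 39.1 CPM), beside 13% of all genes tested. The part of this RNA in the differences of the 10 genes was not tested.

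In the V617F Ezh2+/- and Ezh2+/+ groups, some of the 10 genes ran opposite to the megakaryocyte markers in the libraries at the extremes. Others did not. The V617F Ezh2-/- libraries, with sums of 805 to 1260 CPM, are not described here. V617F Ezh2+/- replicate 2 had the lowest marker sum (197) and the highest erythroid marker sum (10900) of the group. That library also had the highest Cpd (330 CPM), Fam124a (29.4), Plek2 (9.11) and B3gnt7 (17.9) of the group. Replicate 5 had the highest marker sum (1520), the lowest erythroid sum (5920) and the lowest Cpd (163), Fam124a (8.55), Plek2 (4.39) and B3gnt7 (5.84). In V617F Ezh2+/+ replicate 3, with the lowest marker sum (322), had the highest Cpd (343) and Fam124a (22.4), and replicate 1, with the highest (1480), had the lowest of both (208 and 16.3). There B3gnt7 ran the other way, with 10.3 CPM in replicate 3 and 13.9 in replicate 1, and Plek2 was close in both (7.73 and 7.52), with its highest value in replicate 4 (8.14). In V617F Ezh2+/+ replicate 1 also had the highest App (58.4), Rnf144b (11.7) and Osbpl3 (44.0), and replicate 3 the lowest Osbpl3 (36.4). Gab2 was highest there in replicate 3 (48.5). In V617F Ezh2+/- Gab2 and App did not follow the order of the markers: Gab2 was 42.0 CPM in both replicates 2 and 5, and App 37.1 and 38.5 CPM.

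**Figure D5:**
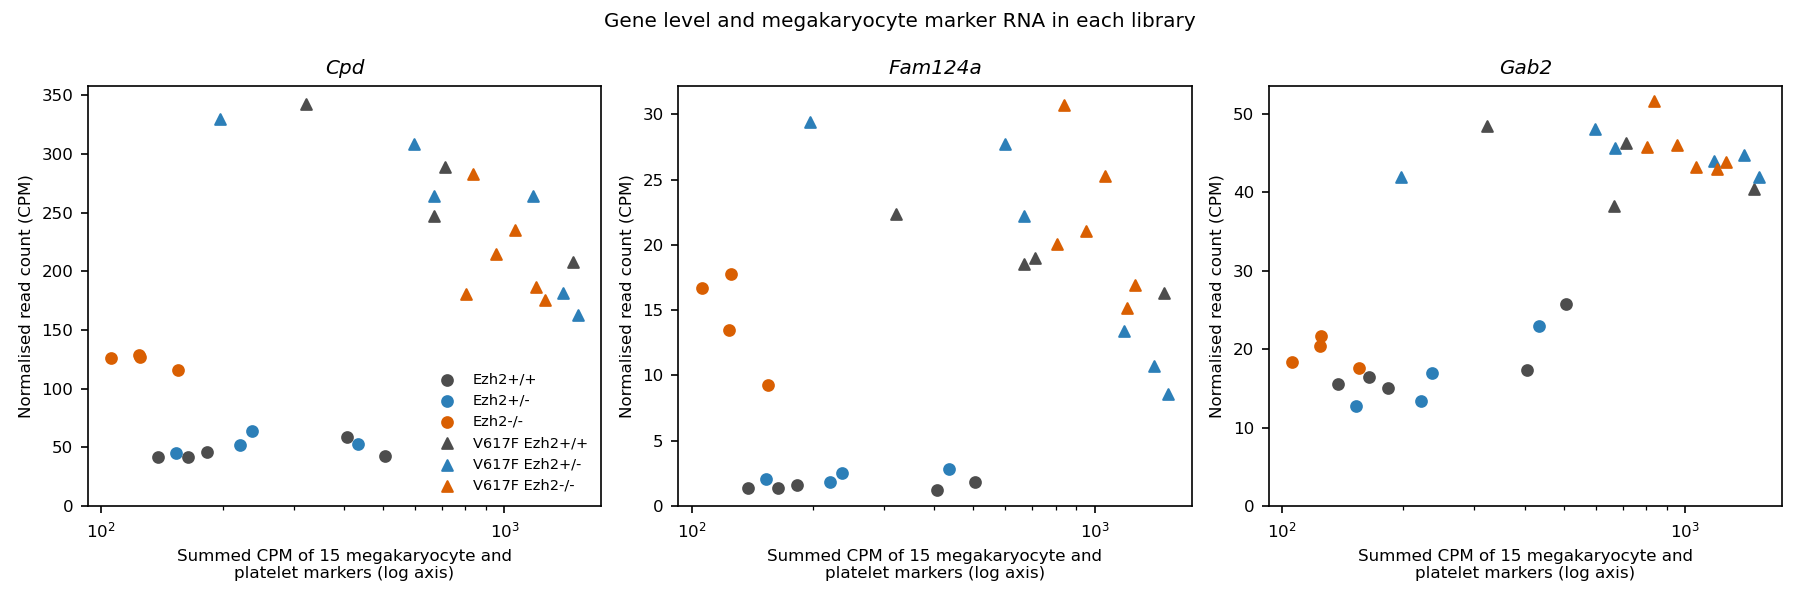
CPM of Cpd, Fam124a and Gab2 (vertical axes from 0) against the summed CPM of 15 megakaryocyte and platelet markers (horizontal log axis) in each of the 29 libraries, with circles for no V617F, triangles for V617F and colour for the Ezh2 genotype. Within V617F Ezh2+/+ and within V617F Ezh2+/-, Cpd and Fam124a are highest at the lowest marker sum and lowest at the highest. Gab2 in all triangles stays between 38.2 and 51.6 CPM.

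Among the libraries without V617F, control replicate 5 and Ezh2+/- replicates 2 and 5 held the most granulocyte marker RNA (339, 338 and 219 CPM, the others at most 104). Control replicate 5 had the highest Gab2, App, Rnf144b, Fam124a and B3gnt7 of the controls, and Ezh2+/- replicate 5 the highest Gab2, App, Rnf144b, Fam124a, Fabp5 and B3gnt7 of its group. These same 2 libraries also had the highest megakaryocyte marker sums (505 and 434 CPM) and the lowest erythroid ones (7100 and 7790 CPM) of their groups, while Ezh2+/- replicate 2 was the highest of its group for Cpd and Gda. Without all 3 libraries the V617F differences in Ezh2+/+ and Ezh2+/- were 1.47 and 1.88 for Gab2, 1.85 and 1.74 for App, 1.71 and 2.18 for Rnf144b, and 3.48 and 3.0 for B3gnt7. Those of the other 6 genes were 0.63 to 3.79 in Ezh2+/+ and 0.75 to 3.34 in Ezh2+/-.

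Some counts carry an uncertainty of annotation. In GENCODE M21, genes on the other strand overlap Fam124a (1 gene), App (5 genes), Rnf144b (2 genes) and B3gnt7 (1 gene), and none overlaps the other 6. The sources used here do not name the strand setting of the counting, so reads of these genes and their antisense partners cannot be told apart. None of the 10 genes had counts identical to those of another gene.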

How the data were processed

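Sorted MEPs (230000 cells per sample) were profiled by RNA-seq, with extraction in Trizol-LS per the labels' protocols. Reads were aligned with STAR to mouse build mm9, per the submitters' processing notes. The sources used here do not name the counting program, annotation or strand setting. The authors deposited whole-number counts per Entrez gene, with a gene length that served only for RPKM. Symbols came from RefSeq (assembly GRCm38.p6), which named 18772 of 18834 identifiers.

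Genes were filtered with filterByExpr (minimum count 10, minimum total 15) and libraries scaled by TMM (factors 0.95 to 1.093). A robust quasi-likelihood fit in edgeR 4.0.16 (R 4.3.3) used all 29 libraries with terms for the 6 groups and sex (22 residual degrees of freedom, biological coefficient of variation 18.1%). All tests were two-sided. Each SE is the size of the log2 fold change divided by the square root of F. The script was tested on simulated data. Profiles of likeness used log2 CPM with a prior count of 2, over genes whose mean log2 CPM reached 2.

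The 10 genes and all lists were chosen with earlier results of these data known. Named relatives were up to 3 per list, direction and comparison with the lowest adjusted p. The closest 2 genes outside the 10 were named by likeness. Alternatives were DESeq2 1.42.0, RLE size factors, no filter, no sex term, compared groups only, female libraries only, a replicate block, 3 libraries left out, each library left out in turn, and a prior count of 0.5. No 2 replicates were duplicates (lowest chi-square per degree of freedom 4.92). Totals ran from 31583023 to 59448945 counts, and a floor of 3 counts lies below the levels reported, for counting error only.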

Additional observations from a re-analysis of the deposited data

Results flagged for a closer look

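In 8 of 72 groups of 4 to 6 libraries, over the 10 genes, Ezh2 and Jak2, the highest or lowest library stood apart from the rest, where chance gives about 1 in 20. Those in controls were Cpd in replicate 3 (58.4 CPM, next 46.2), and in replicate 5 Gab2 (25.8, next 17.3) and B3gnt7 (2.45, next 1.39). Fabp5 was lowest in Ezh2+/- replicate 1 (18.8 CPM, next 29.2). With V617F they were App in Ezh2+/- replicate 6 (43.5 CPM, next 39.0), Gab2 in Ezh2-/- replicate 5 (51.6, next 46.0), Osbpl3 in Ezh2+/+ replicate 1 (44.0, next 37.5) and B3gnt7 in Ezh2+/- replicate 2 (17.9, next 9.63).

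The V617F difference differed between Ezh2-/- and Ezh2+/+ cells, by edgeR's interaction test, for 7 genes named here that are not among the 10. The interaction was 2.19 ± 0.67 for Plek (adjusted p = 0.0308), 2.5 ± 0.56 for Cpe (adjusted p = 0.0126), 1.09 ± 0.39 for Gmpr (adjusted p = 0.0494), -0.50 ± 0.11 for Ada (adjusted p = 0.0125) and 0.44 ± 0.14 for Rnf19a (adjusted p = 0.0357). It was 0.28 ± 0.07 for Jak2 (adjusted p = 0.0189) and -0.35 ± 0.12 for Ezh2 itself (adjusted p = 0.0425). Among the 13928 genes tested, leaving out 1 library gave 297 to 4633 such calls, so nothing is read from the count of 7.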

How the results depend on the processing

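The 9 of 10 genes called with V617F in Ezh2-/- were also 9 under every alternative, and the 7 called with Ezh2 loss alone stayed 7, or 8 with 3 libraries left out. With V617F, Ezh2-/- called 4 of the 10, and 2 to 3 when 1 library was left out. Counts over all genes moved more. In females only, 1875 genes were called with V617F in Ezh2+/+ (3288 in all libraries), 1681 with Ezh2 loss alone (3307), 2268 with Ezh2 loss and V617F (3709), 128 interactions with Ezh2-/- (2663), 0 with Ezh2+/- alone (2) and 20 with Ezh2+/- and V617F (1). With 3 libraries left out, 94 were called with V617F in Ezh2+/- (1374), 1 with Ezh2+/- alone and 1199 interactions. Compared groups only gave 313 with V617F in Ezh2+/-, and 1 and 2 with Ezh2+/- without and with V617F, no sex term gave 2170 with V617F in Ezh2+/-, and DESeq2 gave 6 and 38 with Ezh2+/- and 7 interactions with Ezh2+/- (0).

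Leaving out 1 library gave 2518 to 3279 genes with V617F in Ezh2+/+, 706 to 1893 in Ezh2+/- (802 without Ezh2+/- replicate 2, 706 without replicate 5) and 3197 to 6112 in Ezh2-/- (3197 without Ezh2-/- replicate 3). It gave 2096 to 3595 with Ezh2 loss alone (2096 without Ezh2-/- replicate 3), 1954 to 5151 with V617F (2368 and 1954 without V617F Ezh2+/+ replicates 2 and 4), 297 to 4633 interactions with Ezh2-/- (297 without Ezh2-/- replicate 3, 533 without control replicate 1, 951 without V617F Ezh2+/+ replicate 4, 4633 without V617F Ezh2+/+ replicate 1, and 1068 to 1763 without 6 further libraries), 0 to 0 with Ezh2+/-, 1 to 2 with Ezh2+/- alone and 1 to 37 with V617F. The cause was not tested.

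Same-numbered samples did not deviate together in every pair (correlations -0.489 to 0.795, and 1, 0 and 1 of 4 libraries closest to their own number). The replicate block gave 1623 interactions with Ezh2-/- and 1 gene with Ezh2+/- alone, and changed no call of the 10 genes for V617F in Ezh2-/- or for Ezh2 loss alone.

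Differences near 0 changed sign, with none of the changed values called. App with Ezh2 loss alone (-0.02) was 0.16 with 3 libraries left out, 0.02 with no sex term, 0.02 with the replicate block and -0.13 to 0.12 without single libraries. Gab2 with Ezh2 loss alone was -0.03 in females and -0.01 to 0.26 without single libraries, and with V617F it was -0.01 with the block and -0.04 to 0.13 without single libraries. Without single libraries, the Ezh2-/- difference with V617F was -0.08 to 0.02 for Osbpl3, the V617F difference in Ezh2+/+ was -0.1 to 0.0 for Ezh2, and the Ezh2+/- difference with V617F was 0.0 to 0.05 for Jak2.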
